A study of Mus musculus with 96 samples.

Results

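Class II histocompatibility genes encode the machinery that displays peptides of ingested proteins to CD4+ T cells. The 8 genes described here were taken by symbol from the 38924 genes of the deposited liver tables. They are H2-Aa, H2-Ab1, H2-Eb1 and H2-Ea-ps, which belong to the class II chains themselves, H2-DMa and H2-DMb1, which edit the bound peptide, Cd74, the invariant chain, and Ciita, the class II transactivator. Of these, 7 had counts in the liver and were tested for total expression, and 4 reached the count minimum for alleles, of which 3 carried allele information. H2-Ea-ps was listed at 0 in all 48 mice.

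Liver messenger RNA was sequenced from 48 male F1 mice, the first-generation offspring of NOD/ShiLtJ and PWK/PhJ parents mated in both directions. NOD/ShiLtJ is an inbred strain that develops autoimmune diabetes, and PWK/PhJ is an inbred strain derived from wild mice of another subspecies. The 8 groups of 6 mice combined the cross, the age and the diet, and every mouse carried 1 set of autosomes of each strain. Livers are bulk tissue, so fewer cells of a type and less RNA per cell cannot be told apart in these values.

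NODxPWK and PWKxNOD name the crosses with the strain written first, taken here as the dam. The high diet held 0.050 g/kg and the normal diet 0.009 g/kg of cholecalciferol, which is vitamin D3, and the diets were otherwise matched. The age labels read 24 or 25 for the older and 8 for the younger mice and give no unit. Since the protocol speaks of 24 and 15 weeks instead, ages are given only as older and younger. Label 25 was carried by 7 mice, all older and on the normal diet (5 NODxPWK and 2 PWKxNOD). The groups were thus NODxPWK older high, NODxPWK older normal, NODxPWK younger high and NODxPWK younger normal, with the same 4 combinations for PWKxNOD.

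A class II molecule pairs an alpha with a beta chain: H2-Aa and H2-Ab1 encode the pair called I-A in mice, and H2-Eb1 encodes the beta chain of I-E. The invariant chain Cd74 fills the groove of a new class II molecule and steers it to endosomes, where the H2-DM pair exchanges the last piece of the invariant chain for peptide. Ciita is a coactivator that does not bind DNA itself and is recruited to class II promoters by RFX, CREB and NF-Y proteins on the X and Y boxes. In liver, class II is chiefly carried by Kupffer cells (the resident macrophages), dendritic cells and B cells, while resting hepatocytes show little of it. NOD mice are known for a class II haplotype that carries much of their inherited diabetes risk and for the lack of an I-E alpha chain.

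Depth limited what the rarer genes could show. Summed expected counts, which are estimated read counts that need not be whole, ranged from 2025857 to 7480778 per mouse (median 5273518), and the 6 mice of 1 barcode held 2025857 to 3090625. Hepatocyte markers were abundant: 6 such genes summed to between 56046 and 119199 CPM (counts per 1000000 counts of the mouse). One PWKxNOD younger high mouse carried 1666 CPM of exocrine pancreas markers, against at most 292 CPM in the others. In the class II genes, the median count per mouse was 304 for Cd74, 140 for H2-Aa, 120 for H2-Ab1 and 45.5 for H2-Eb1. It was only 8 for H2-DMa, 7.37 for H2-DMb1 and 8 for Ciita, so these 3 genes are reported as low-count genes throughout.

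The genes sit in 3 places of the genome. On chromosome 17 of GRCm38, in the order of their starts, lie H2-DMa (ENSMUSG00000037649, chr17:34119541-34139101, plus strand), H2-DMb1 (ENSMUSG00000079547, chr17:34153072-34160230, plus strand), H2-Ab1 (ENSMUSG00000073421, chr17:34257689-34269419, plus strand), H2-Aa (ENSMUSG00000036594, chr17:34282744-34287823, minus strand), H2-Eb1 (ENSMUSG00000060586, chr17:34305867-34316674, plus strand) and H2-Ea-ps (ENSMUSG00000036322, chr17:34341959-34344645, minus strand). Cd74 (ENSMUSG00000024610) lies apart at chr18:60803848-60812652 on the plus strand. Ciita (ENSMUSG00000022504) lies at chr16:10480059-10528418 on the plus strand. GENCODE M21 annotates H2-Ea-ps as a polymorphic pseudogene, a gene that is intact in some strains and broken in others, and the other 7 as protein coding.

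Some reads cannot be told apart between genes. Windows of 68 bases, the read length, were compared between the transcripts of all genes. H2-DMb1 shared 17.2% of its windows with its neighbour and paralog H2-DMb2 (ENSMUSG00000037548, chr17:34143307-34151555, plus strand), so the split of reads between the pair is uncertain. H2-DMa shared 7.73% of its windows with Brd2, which overlaps it, and Ciita shared 0.913% with Dexi. H2-Ab1, H2-Eb1, H2-Ea-ps and Cd74 shared none, and H2-Aa shared 0.0255%.

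Levels were compared between genes per kilobase of exon (CPM per kb), where all annotated exons of a gene were joined. Cd74 was the most abundant at 34.3 ± 7.2 CPM per kb (SD, n = 48), with a range of 16 to 55.1. H2-Ab1 followed at 9.03 ± 2.02, H2-Aa at 7.17 ± 1.52 and H2-Eb1 at 4.74 ± 1.11 CPM per kb. The low-count genes came last, with H2-DMb1 at 0.914 ± 0.426, H2-DMa at 0.46 ± 0.19 and Ciita at 0.147 ± 0.0577 CPM per kb. This order held within most animals: Cd74 exceeded H2-Ab1 in 48 of 48 mice, H2-Ab1 exceeded H2-Aa in 45, H2-Aa exceeded H2-Eb1 in 47 and H2-Eb1 exceeded H2-DMb1 in 48. The ranges of H2-Ab1 (4.52 to 15.9 CPM per kb) and H2-Aa (3.75 to 13.2 CPM per kb) overlapped widely over mice, and so did those of the 3 low-count genes. Within a mouse, H2-DMb1 exceeded H2-DMa in 40 mice and H2-DMa exceeded Ciita in 45. The order of close genes, and these numbers of mice, depend on the exon lengths. These were 3798 bases for H2-Aa, 2568 for H2-Ab1, 3448 for H2-DMa and 1681 for H2-DMb1. Before division, H2-Aa averaged 27.2 CPM and H2-Ab1 23.2 CPM, and H2-DMa averaged 1.58 CPM and H2-DMb1 1.54 CPM.

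Proportions between the abundant genes varied less than their levels. The ratio of H2-Aa to H2-Ab1 in CPM was 1.19 ± 0.188 (SD, n = 48) and lay between 0.789 and 1.72. The ratio of Cd74 to the sum of H2-Aa, H2-Ab1 and H2-Eb1 in CPM was 0.967 ± 0.101 and lay between 0.696 and 1.13. By comparison, Cd74 itself ranged from 26.9 to 92.5 CPM over the same mice.

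H2-Ea-ps, the gene for the I-E alpha chain where it is intact, was listed at 0 in both allele tables in every mouse. A value of exactly 0 in an estimated table need not mean that no reads were present, and 35 of the 53 genes annotated as polymorphic pseudogenes were listed at 0 throughout. Over all genes, 33.6% were listed at 0 in all mice. H2-Eb1, the partner of that chain, was measured in 48 of 48 mice.

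Across the 8 groups the chain genes overlapped everywhere. In NODxPWK mice, H2-Aa had a median of 26.9 CPM (lowest 25.1, highest 34) in the older high group, 27.9 CPM (24.3 to 31.4) in the older normal group, 28.2 CPM (25.8 to 50.2) in the younger high group and 25.1 CPM (23.9 to 33.1) in the younger normal group. In PWKxNOD mice, the medians of H2-Aa were 28.2 CPM (14.2 to 32.8) in the older high group, 26.4 CPM (21.3 to 39.2) in the older normal group, 23.1 CPM (18.5 to 35.6) in the younger high group and 26.6 CPM (18.3 to 30.7) in the younger normal group. Medians of H2-Aa thus spanned only 23.1 to 28.2 CPM, while single mice spanned 14.2 to 50.2 CPM.

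H2-Ab1, the other I-A chain, had medians of 21.6 CPM (19.9 to 32.3) in the NODxPWK older high group, 22.3 CPM (19.1 to 26.8) in the older normal, 25.8 CPM (22.2 to 40.9) in the younger high and 21.2 CPM (17 to 28.9) in the younger normal group of that cross. In PWKxNOD mice its medians were 20.6 CPM (11.6 to 26.6) in the older high, 22.4 CPM (17.1 to 29.5) in the older normal, 23.2 CPM (14 to 32.7) in the younger high and 23.7 CPM (15.9 to 27.3) in the younger normal group. All 8 groups of H2-Ab1 overlapped one another.

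H2-Eb1 had medians of 10.1 CPM (8.14 to 11.8) in the NODxPWK older high group, 8.5 CPM (7.69 to 10.9) in the older normal, 9.89 CPM (7.71 to 16.2) in the younger high and 8.06 CPM (7.09 to 8.98) in the younger normal group of that cross. In PWKxNOD mice the medians of H2-Eb1 were 8.48 CPM (6.08 to 12.5) in the older high, 10.3 CPM (6.54 to 13.4) in the older normal, 8.32 CPM (6.35 to 13.1) in the younger high and 8.25 CPM (5.47 to 11.8) in the younger normal group. The group SDs of H2-Eb1 ran from 0.814 to 3.07 CPM in NODxPWK mice and from 2.28 to 2.75 CPM in PWKxNOD mice, and the groups overlapped.

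Cd74 had medians of 55.6 CPM (52.5 to 68.7) in the NODxPWK older high group, 55.4 CPM (40.3 to 62.3) in the older normal, 67.9 CPM (58.6 to 92.5) in the younger high and 57.4 CPM (48.1 to 75) in the younger normal group of that cross. In PWKxNOD mice the medians of Cd74 were 46.7 CPM (26.9 to 68.5) in the older high, 54 CPM (47 to 74.3) in the older normal, 58.2 CPM (39.8 to 83.8) in the younger high and 57.7 CPM (34.4 to 63.4) in the younger normal group. The highest and the lowest group median of Cd74 were both those of mice on the high diet.

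A single animal held the highest value of all 4 abundant genes. Replicate 3 of the NODxPWK younger high group had 50.2 CPM of H2-Aa, 40.9 CPM of H2-Ab1, 16.2 CPM of H2-Eb1 and 92.5 CPM of Cd74. It was named after the values were seen. Its summed Kupffer cell markers were 224 CPM, rank 4 from the highest among 48 mice, its haemoglobin list 460 CPM, and its summed counts 6408902.

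**Figure D1:**
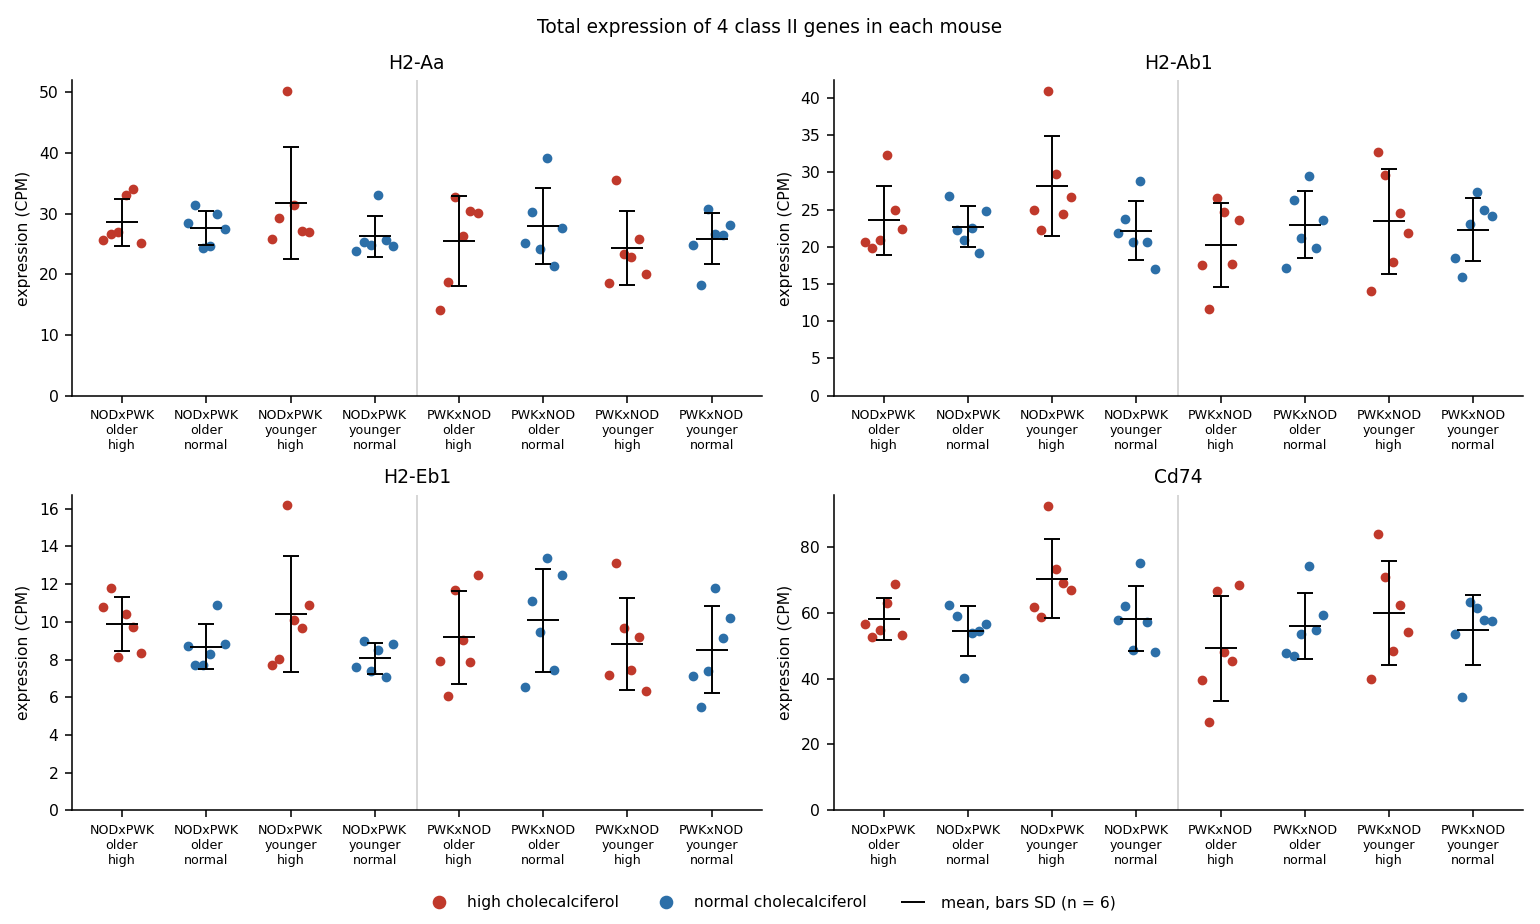
Total expression of H2-Aa, H2-Ab1, H2-Eb1 and Cd74 in CPM (vertical axis from 0) for each of 6 mice in 8 groups (horizontal axis), with points in red for the high and blue for the normal cholecalciferol diet and black bars for mean ± SD. The groups overlap in every panel, and 1 NODxPWK younger high mouse is the highest for all 4 genes, at 50.2 CPM for H2-Aa.

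Age changed many genes in the liver, and no class II gene passed its test. Of all 11979 genes tested, 12% differed between older and younger mice (edgeR's quasi-likelihood test, adjusted p below 0.05), beside 0 of the 7 tested class II genes. With only 7 genes, 0 called cannot be set apart from that share. Cd74 lay between 26.9 and 74.3 CPM (median 54.4) in 24 older mice and between 34.4 and 92.5 CPM (median 60) in 24 younger mice. The ranges of the 2 ages overlapped over most of their length.

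The log2 difference of Cd74, older minus younger, was -0.15 ± 0.08 (SE; 95% interval -0.32 to 0.02), with an unadjusted p of 0.0752 and an adjusted p of 0.268 by edgeR. H2-Aa averaged 27.4 ± 5.19 CPM in the older mice, against 27.1 ± 6.43 CPM in the younger (SD, n = 24 each), a log2 difference of 0.02 ± 0.08. H2-Ab1 averaged 22.4 ± 4.39 CPM in the older mice, against 24 ± 5.86 CPM in the younger, a log2 difference of -0.09 ± 0.09. H2-Eb1 averaged 9.45 ± 2 CPM in the older mice, against 8.96 ± 2.33 CPM in the younger, a log2 difference of 0.09 ± 0.09. The 95% intervals were 0.903-fold to 1.14-fold for H2-Aa, 0.831 to 1.06 for H2-Ab1, 0.94 to 1.21 for H2-Eb1 and 0.801 to 1.01 for Cd74. Changes with age inside a gene's own interval remain possible.

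The low-count genes allowed wider changes with age. The log2 difference was -0.07 ± 0.18 for H2-DMa (fold 0.95, interval 0.735 to 1.23), 0.02 ± 0.20 for H2-DMb1 (fold 1.02, interval 0.767 to 1.35) and 0.25 ± 0.17 for Ciita (fold 1.19, interval 0.934 to 1.51). Their adjusted p-values by edgeR were 0.869, 0.97 and 0.417 in that order. The median log2 difference of the 7 tested class II genes was 0.02, beside -0.004 over all genes tested. None of the 7 had an unadjusted p below 0.05 by edgeR, and DESeq2 called none either.

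Among 31 other genes of class II regulation, peptide processing and interferon signalling, 24 were tested and 4 passed the age test. The share that passed over all 11979 genes tested was 12%. Ctsb, which encodes the lysosomal protease cathepsin B, was higher in older mice by 0.19 ± 0.03 on the log2 scale (adjusted p = 1.02e-05 by edgeR). Lgmn, which encodes the protease legumain, was higher by 0.16 ± 0.04 (adjusted p = 0.00764 by edgeR), and March1, a ubiquitin ligase that removes class II from the surface, by 0.60 ± 0.20 (adjusted p = 0.0364 by edgeR). Irf1, an interferon response factor, was lower by -0.28 ± 0.09 (adjusted p = 0.0277 by edgeR). The median log2 difference of the 24 genes was -0.01.

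Few genes in all passed the diet test, and none of the class II genes did. Of 11979 genes, 0.342% differed between the high and the normal diet (edgeR, adjusted p below 0.05), against 0 of 7 class II genes. The nearest was H2-DMb1, with a lowest, median and highest value of 0.637, 1.62 and 3.49 CPM in 24 mice on the high diet. In 24 mice on the normal diet its median was 1.28 CPM, the highest was 3.12 CPM and the lowest was listed near 0. The log2 difference of H2-DMb1, high minus normal, was 0.43 ± 0.21 (95% interval 0.02 to 0.84), with an unadjusted p of 0.0419 and an adjusted p of 0.418 by edgeR. H2-DMb2, which shares reads with it, differed in the other direction, at -0.11 ± 0.15 (adjusted p = 0.875 by edgeR).

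The I-A and I-E genes and Cd74 overlapped widely between the diets. H2-Aa averaged 27.5 ± 7.11 CPM on the high and 26.9 ± 4.18 CPM on the normal diet (SD, n = 24 each), and H2-Ab1 averaged 23.8 ± 6.37 CPM on the high and 22.5 ± 3.68 CPM on the normal diet. H2-Eb1 averaged 9.58 ± 2.34 CPM on the high and 8.84 ± 1.95 CPM on the normal diet, and Cd74 averaged 59.4 ± 14.5 CPM on the high and 55.8 ± 9.05 CPM on the normal diet. Their log2 differences lay between 0.02 and 0.14, with adjusted p-values of 0.638 to 0.971 by edgeR. All 4 genes had a larger SD over the mice on the high diet, a difference in spread that was not tested. Only H2-DMb1 had an unadjusted p below 0.05 by edgeR. DESeq2 called none of the 4 class II genes to which it gave an adjusted p, and gave none to H2-DMa, H2-DMb1 and Ciita. None of the 24 tested pathway genes passed the diet test.

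No class II gene passed the test for the direction of the cross either. Of 11979 genes, 10.7% differed between NODxPWK and PWKxNOD mice (edgeR, adjusted p below 0.05), beside 0 of 7 class II genes. The 10.7% includes genes of the X chromosome, of which a male carries only the copy of his dam. As for age, 7 class II genes are too few to set 0 apart from such a share. All 7 had a positive log2 difference, NODxPWK minus PWKxNOD, of 0.01 to 0.21 with a median of 0.13, beside a median of 0.002 over all genes tested. The abundant genes moved together from mouse to mouse (r of 0.69 to 0.86, described below), so the 7 signs are not separate observations. H2-Aa lay between 23.9 and 50.2 CPM (median 27) in NODxPWK mice and between 14.2 and 39.2 CPM (median 26.1) in PWKxNOD mice. No NODxPWK mouse was as low as the lowest PWKxNOD mice for H2-Aa, but the medians nearly coincided.

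The log2 difference of H2-Aa by cross was 0.14 ± 0.08 (95% interval -0.03 to 0.30), with an unadjusted p of 0.103 and an adjusted p of 0.347 by edgeR. Cd74 averaged 60.2 ± 10.6 CPM in NODxPWK and 55 ± 13.1 CPM in PWKxNOD mice (SD, n = 24 each), a log2 difference of 0.13 ± 0.08 (adjusted p = 0.415 by edgeR). H2-Eb1 averaged 9.27 ± 1.97 CPM in NODxPWK and 9.14 ± 2.39 CPM in PWKxNOD mice, a log2 difference of 0.01 ± 0.09.

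Of the 24 tested pathway genes, 4 passed the cross test, beside 10.7% of all 11979 genes tested. Rfxank, a subunit of the RFX complex that binds the X box, was higher in NODxPWK mice by 0.51 ± 0.09 on the log2 scale (adjusted p = 5.27e-05 by edgeR). Ctsl, which encodes cathepsin L, was higher by 0.24 ± 0.06 (adjusted p = 0.00353 by edgeR). Psmb9 and Psmb8, immunoproteasome subunits encoded inside the class II region, were lower in NODxPWK mice by -0.41 ± 0.12 (adjusted p = 0.0125 by edgeR) and -0.27 ± 0.08 (adjusted p = 0.0169 by edgeR). The neighbouring class II genes H2-DMa, H2-DMb1, H2-Ab1 and H2-Aa did not pass, with log2 differences of 0.17, 0.05, 0.11 and 0.14.

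Interactions asked whether one factor's difference depended on another. The diet difference in older mice minus that in younger mice was negative for all 7 class II genes, between -0.63 and -0.11 on the log2 scale, with a median of -0.26 beside -0.008 over all genes tested. None passed, against 0.618% of the 11979 genes tested (edgeR, adjusted p below 0.05). Since the abundant genes moved together from mouse to mouse, the 7 signs are not separate observations here either. Ciita had the largest estimate at -0.63 ± 0.34 (adjusted p = 0.467 by edgeR), followed by H2-Ab1 at -0.31 ± 0.18 (adjusted p = 0.505 by edgeR) and Cd74 at -0.26 ± 0.17 (adjusted p = 0.56 by edgeR). The 9 tested Kupffer cell markers had a median of -0.10 in the same comparison.

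Cd74 shows the group values behind these estimates. Its means were 58.1 ± 6.39 CPM on the high and 54.3 ± 7.56 CPM on the normal diet in NODxPWK older mice, and 70.3 ± 12.1 CPM on the high and 58.1 ± 9.91 CPM on the normal diet in NODxPWK younger mice (SD, n = 6 each). In PWKxNOD mice they were 49.2 ± 16 CPM on the high and 56 ± 10 CPM on the normal diet at the older age, and 59.9 ± 15.9 CPM on the high and 54.7 ± 10.5 CPM on the normal diet at the younger age. The ranges of the 2 diets overlapped in each of these 4 pairs.

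The age difference depended on the cross for 0.0501% of all genes and the diet difference depended on the cross for 0.125% (edgeR, adjusted p below 0.05). Neither interaction was called for any of the 7 class II genes. For age by cross their log2 values lay between -0.51 and 0.10 (median -0.13), and for diet by cross between -0.30 and 0.30 (median 0.21). No pathway gene passed an interaction.

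**Figure D2:**
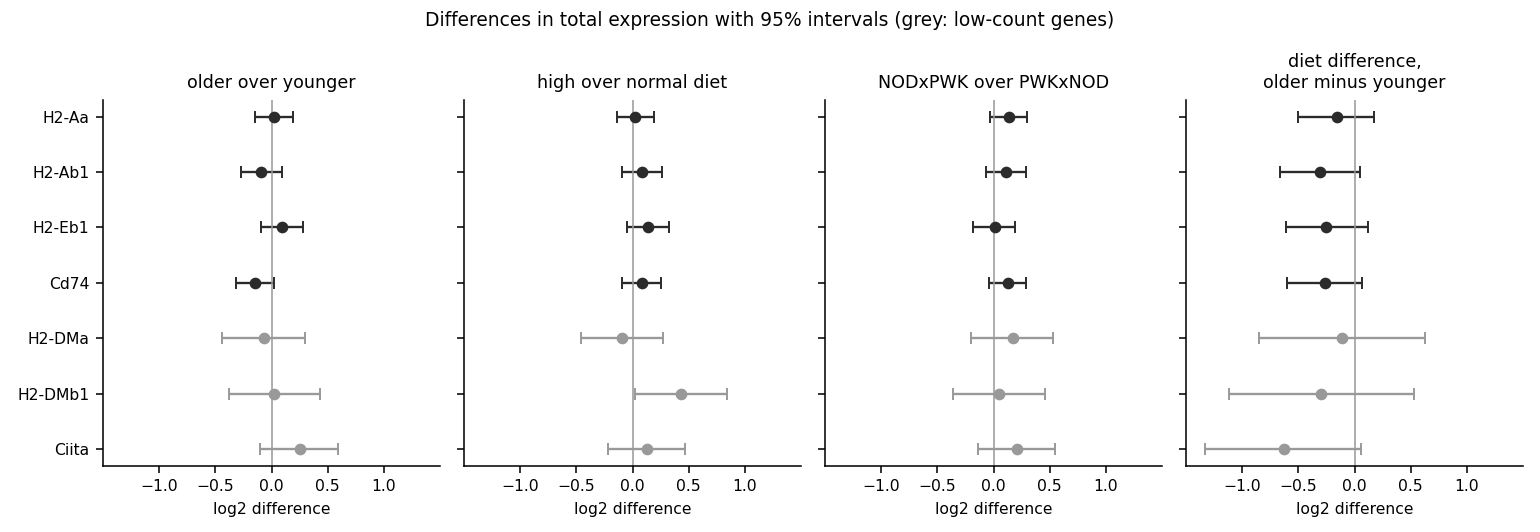
Log2 differences in total expression (horizontal axis) of 7 class II genes (vertical axis) for older over younger mice, high over normal diet, NODxPWK over PWKxNOD, and the diet difference in older minus younger mice, with points for the estimate and lines for the 95% interval. Low-count genes are in grey. All intervals but that of H2-DMb1 for diet (0.02 to 0.84) include 0.

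Allele shares compared the 2 parental copies within each mouse. The PWK share is the percentage of a gene's expected counts given to the PWK allele, so 50% means equal alleles. H2-Eb1 had identical counts for both alleles in every mouse (within a relative tolerance of 1e-06), which is what an estimate returns where no read separates the alleles, and so says nothing of its allelic expression. The same was true of 5.05% of the 9706 genes whose counts averaged 20 or more per mouse. H2-Aa, H2-Ab1 and Cd74 were informative.

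H2-Aa favoured the PWK allele. Over the 48 mice its PWK share had a lowest value of 44.4%, a median of 57.7% and a highest value of 67.9%, with 3898 counts on the PWK and 2981 on the NOD allele in all. The share was above 50% in 44 of 48 mice, and every group median lay between 55.2% and 60.3%. The log2 ratio of PWK over NOD was 0.40 ± 0.05 (95% interval 0.30 to 0.51), a 1.32-fold difference with an adjusted p of 1e-08 by edgeR. Such a difference was common: 43.6% of 9362 autosomal genes tested for alleles passed, and of the 3 informative class II genes H2-Aa did.

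H2-Ab1, which encodes the partner chain of the same molecule, did not pass. Its PWK share ranged from 36.4% to 64.4% with a median of 50.4%, above 50% in 24 mice and below it in 23, with 1 mouse at equality. The log2 ratio of PWK over NOD was -0.01 ± 0.06 (95% interval -0.14 to 0.12, adjusted p = 0.984 by edgeR). In the same animals the PWK share of H2-Aa exceeded that of H2-Ab1 in 37 of 48 mice, by 7.24 ± 8.05 percentage points (SD, n = 48; range -10.1 to 27.1).

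Cd74 was balanced on average and widely spread between mice. Its PWK share averaged 50% ± 10.5 (SD, n = 48), above 50% in 24 mice and below it in 24, and the log2 ratio of PWK over NOD was -0.01 ± 0.09 (adjusted p = 1 by edgeR). The lowest share was 25.2% (49 of 194 counts, Wilson 95% interval 19.7 to 31.8%) in a PWKxNOD younger high mouse, and the highest was 76.9% (88 of 115 counts, interval 68 to 83.3%) in a PWKxNOD younger normal mouse of the shallowest barcode. These intervals cover counting error only, and both exclude 50%. The 2 mice were picked as the extremes of 48, so this is no test of spread and is not particular to Cd74. For H2-Ab1 the intervals of the extremes, 26.3 to 48.6% and 54.8 to 73.4%, excluded 50% too. For H2-Aa that of the highest share did (54.2 to 79.2%) and that of the lowest did not (36.6 to 52.3%).

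The spread of Cd74 shares within groups was 10.2 times the variance that binomial counting gives. Over 8894 informative genes the median of this variance ratio was 4.96, with a 5th percentile of 1.81 and a 95th of 19.6, and 82.2% of genes lay below Cd74. H2-Aa and H2-Ab1 had lower ratios of 2.05 and 2.37, with 7.34% and 11.3% of genes below them. Estimated counts add error of their own, which this ratio does not separate from differences between animals.

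**Figure D3:**
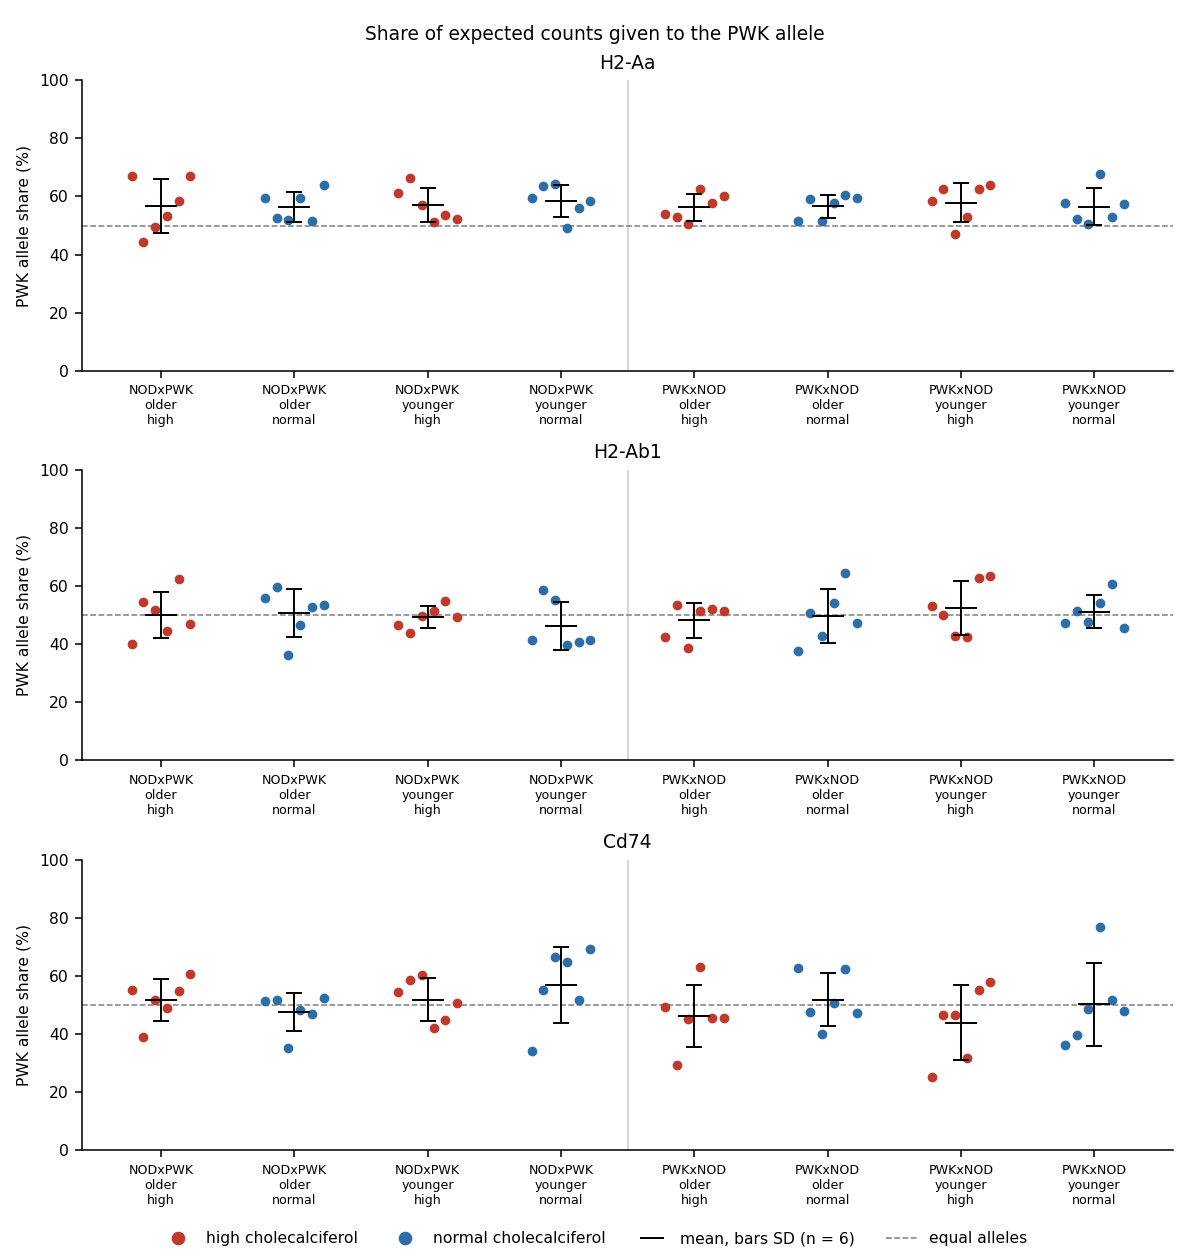
Percentage of expected counts given to the PWK allele (vertical axis, 0 to 100%) for H2-Aa, H2-Ab1 and Cd74 in each of 6 mice in 8 groups, with red points for the high and blue for the normal diet, black bars for mean ± SD and a dashed line at 50%. H2-Aa lies above 50% in 44 of 48 mice, H2-Ab1 in 24, and Cd74 runs from 25.2% to 76.9%.

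Parent of origin, age and diet gave no called difference in the allele ratios. Of 9362 genes, 0.267% passed for the maternal over the paternal allele, 0.705% for age and 0.0214% for diet (edgeR, adjusted p below 0.05), against none of the informative class II genes. The maternal over paternal log2 ratio was -0.01 ± 0.05 for H2-Aa, 0.03 ± 0.06 for H2-Ab1 and -0.13 ± 0.09 for Cd74 (unadjusted p = 0.163 and adjusted p = 1 for Cd74 by edgeR). For H2-Aa the PWK share was 57.1% ± 6.29 in NODxPWK and 56.8% ± 5.16 in PWKxNOD mice (SD, n = 24 each). For Cd74 it was 52% ± 9 in NODxPWK and 48% ± 11.6 in PWKxNOD mice.

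The PWK share of H2-Aa averaged 56.5% ± 5.72 in older and 57.5% ± 5.75 in younger mice, and 56.9% ± 6.38 on the high and 57% ± 5.06 on the normal diet (SD, n = 24 each). Its log2 ratio of PWK over NOD differed by -0.04 ± 0.10 between the ages, older minus younger, and by -0.01 ± 0.10 between the diets, high minus normal. For Cd74 these differences were -0.07 ± 0.18 with age and -0.19 ± 0.18 with diet, and for H2-Ab1 0.00 ± 0.13 and 0.02 ± 0.13. None had an unadjusted p below 0.301 by edgeR.

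The low-count genes fell below the count minimum of 20 and were tested only with a minimum of 5, where 39.8% of 11789 genes passed for PWK over NOD. Ciita, the transactivator, had 254 counts on the PWK and 103 on the NOD allele over all mice, and its PWK share was above 50% in 39 of the 47 mice with counts, below it in 5 and within 0.05 percentage points of it in 3. Its log2 ratio of PWK over NOD was 1.56 ± 0.40 (95% interval 0.74 to 2.38), with an adjusted p of 0.00149 by edgeR. Single mice had few counts: 13 were at 100% and 3 at 0%. Several of those above 50% lay at only 52.5% to 52.8% on 1 to 5 counts, with 1 mouse at 52.7% on 1 count. Whether reads separated the alleles in these mice was not tested, so the number of mice above 50% may overstate the lean. The PWK share of Ciita was 78.7% ± 25.7 in 24 NODxPWK and 59.7% ± 30.2 in 23 PWKxNOD mice (SD), and the maternal over paternal log2 ratio was -0.81 ± 0.41 (unadjusted p = 0.0512, adjusted p = 1 by edgeR). At this minimum no class II gene was called for the parent of origin, age or diet, against 0.263%, 0.534% and 0.017% of the genes tested. H2-DMa (0.35 ± 0.32) and H2-DMb1 (-0.53 ± 0.34) did not pass, with adjusted p-values of 0.435 and 0.225 by edgeR.

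The H2-DMb paralogs, which share reads, differed in their allele counts. H2-DMb2, which encodes a second H2-DM beta chain, was given almost wholly to the PWK allele, with 545 counts against 42 on the NOD allele and a share of 71.5% to 100% in single mice. Its log2 ratio at the minimum of 5 was 3.74 ± 0.35 (adjusted p = 3e-12 by edgeR), while H2-DMb1 leaned the other way with 161 counts on the PWK and 220 on the NOD allele. When the counts of both paralogs were summed, the PWK share had a median of 76% over 48 mice and lay above 50% in 43.

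Along the class II region the shares changed from gene to gene. In order along chromosome 17, the median PWK share was 46.1% for Brd2, a bromodomain gene, 50% for H2-DMa, 100% for H2-DMb2, 49.3% for H2-DMb1, 49.6% for Psmb9, 54.2% for Tap1, 50.2% for Psmb8, 51.2% for Tap2, 50.4% for H2-Ab1 and 57.7% for H2-Aa. Tap1 and Tap2 encode the peptide transporter of the class I pathway. Of the 7 informative genes in this stretch averaging 20 counts or more, H2-Aa alone passed the PWK over NOD test by edgeR. The adjusted p-values of the other 6 were 0.0812 to 0.984 by edgeR. Over all 9362 genes tested for alleles, 43.6% passed. Psmb9 and Tap1 spread over most of the range in single mice, from 0.38% to 87.1% and from near 0% to 100%, at mean counts of 32.7 and 71.6.

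**Figure D4:**
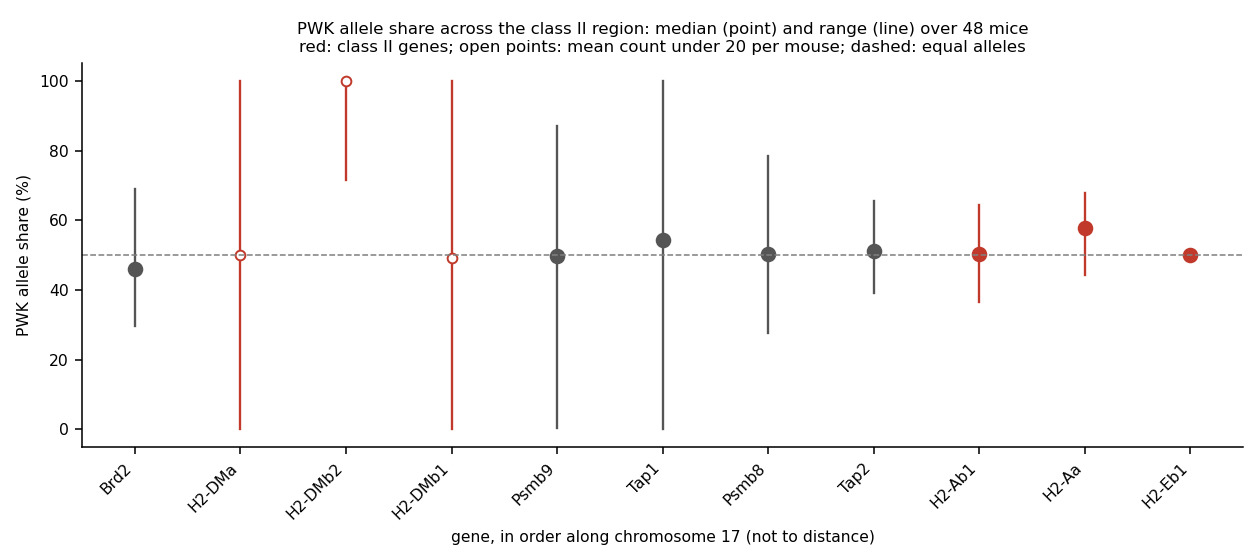
PWK allele share (vertical axis, percent) of genes in their order along the class II region of chromosome 17 (horizontal axis, not to distance), with points for the median and lines for the range over 48 mice. Class II genes are in red and others in grey, and open points mark mean counts under 20. Medians lie between 46.1% and 57.7% except for H2-DMb2 at 100%, and H2-Eb1 sits at exactly 50% in every mouse.

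Of the 31 pathway genes, 22 were tested for alleles, 4 with more PWK and 4 with more NOD counts (edgeR, adjusted p below 0.05). The 4 with the smallest p were Ctsb, at 0.56 ± 0.02 for PWK over NOD (adjusted p = 5.08e-30), Nfyb, a subunit of NF-Y, at -0.64 ± 0.08 (adjusted p = 1.68e-09), Rfxap, a subunit of RFX, at -0.99 ± 0.15 (adjusted p = 6.45e-07), and Ctsl at 0.13 ± 0.02 (adjusted p = 3.97e-06). The share called over all 9362 genes was 43.6%. None of the 22 passed for the parent of origin, age or diet.

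Beyond the groups, the abundant class II genes rose and fell together from mouse to mouse. Deviations of each mouse from its group mean in log2 CPM were compared over 48 mice. The 6 pairs among H2-Aa, H2-Ab1, H2-Eb1 and Cd74 had Pearson's r of 0.69 to 0.86 and Spearman's rho of 0.64 to 0.83, and all 6 had an adjusted permutation p of at most 7e-05 over the 21 pairs of class II genes. The highest was that of H2-Ab1 with Cd74 (r = 0.86, rho = 0.83, permutation p = 1e-05, the smallest the 100000 permutations can give). Without the 2 mice farthest from the median the 6 values of r were 0.68 to 0.82. Within single lane sets of 8 mice they ranged from 0.14 to 0.93.

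The low-count genes followed them loosely. Over the other 15 pairs r lay between -0.11 and 0.46, and 8 had an adjusted permutation p below 0.05 by Pearson's r but only 3 by Spearman's rho, those of Ciita with H2-Aa, H2-Eb1 and Cd74. The highest r was that of Ciita with H2-Eb1 (r = 0.46, rho = 0.37, adjusted permutation p = 0.0126), and r of H2-DMa with Cd74 was 0.37 with all mice and 0.17 without the 2 farthest. Counts near 8 per mouse limit how large such an r can be. The genes also share library and depth, which were the same for all genes of a mouse. The SD within groups was 0.293 to 0.316 on the log2 scale for the 4 abundant genes, about 1.22 to 1.24-fold, and 0.503 to 0.545 for the 3 low-count genes.

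Promoters are shown for 2 class II genes that moved together and for the H2-DMb paralogs, from RefSeq on GRCm38.p6, each 300 bases from 250 before to 50 after the start. H2-Aa is chr17:34287774-34288073 on the minus strand, H2-Eb1 chr17:34305617-34305916, H2-DMb1 chr17:34152941-34153240 and H2-DMb2 chr17:34144999-34145298, all 3 on the plus strand. Capitals mark CTNNNAAC, taken from the X box that RFX binds, and GATTGG, the core of the Y box that NF-Y binds.
H2-Aa: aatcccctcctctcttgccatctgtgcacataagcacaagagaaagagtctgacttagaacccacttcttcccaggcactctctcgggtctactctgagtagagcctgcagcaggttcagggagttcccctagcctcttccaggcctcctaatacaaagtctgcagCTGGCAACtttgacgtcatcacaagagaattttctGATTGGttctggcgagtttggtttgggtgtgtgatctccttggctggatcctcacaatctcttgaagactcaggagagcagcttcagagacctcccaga
H2-Eb1: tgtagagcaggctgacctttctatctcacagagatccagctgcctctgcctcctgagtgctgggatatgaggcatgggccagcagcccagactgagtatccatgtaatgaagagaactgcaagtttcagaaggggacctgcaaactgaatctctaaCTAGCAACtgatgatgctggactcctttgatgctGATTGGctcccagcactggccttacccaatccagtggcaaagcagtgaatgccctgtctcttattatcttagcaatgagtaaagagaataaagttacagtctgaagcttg
H2-DMb1: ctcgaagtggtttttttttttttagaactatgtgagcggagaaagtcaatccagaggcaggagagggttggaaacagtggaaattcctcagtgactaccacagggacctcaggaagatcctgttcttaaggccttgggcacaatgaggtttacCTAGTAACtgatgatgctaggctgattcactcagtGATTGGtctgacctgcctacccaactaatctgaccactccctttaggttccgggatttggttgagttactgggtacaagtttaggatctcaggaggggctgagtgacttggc
H2-DMb2: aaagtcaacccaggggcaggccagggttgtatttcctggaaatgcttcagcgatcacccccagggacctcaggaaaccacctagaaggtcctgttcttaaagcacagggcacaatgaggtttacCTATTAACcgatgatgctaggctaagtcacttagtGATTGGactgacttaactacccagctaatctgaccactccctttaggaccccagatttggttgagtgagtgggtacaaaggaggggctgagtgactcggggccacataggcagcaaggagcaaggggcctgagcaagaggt

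The 4 windows held both motifs in the same order, with 26 bases between them in H2-Eb1 and 27 in the other 3. The first motif began 84 bases before the start in H2-Aa, 94 in H2-Eb1, 97 in H2-DMb1 and 126 in H2-DMb2. The motif letters were written after these sequences were seen, and the motifs do not overlap each other. Searched on both strands, CTNNNAAC followed by GATTGG with 15 to 35 bases between was found in 0.31% of 32544 promoter windows of the same length, and GATTGG alone in 16.1%. Neither of the 2 windows of H2-DMa held the pair. They lie at chr17:34122582-34122881, which overlaps Brd2, and at chr17:34125268-34125567, and which start is used in liver was not tested. The window of H2-Ob, a pathway gene, held the pair and that of H2-Oa did not. A match is a stretch of letters and no measurement of binding.

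The Kupffer cell and haemoglobin lists moved with the class II genes. H2-Aa and Cd74 were each compared with the mean log2 CPM of 7 marker lists, 14 relations in all, as deviations from group means. Each mean used only the markers of its list that were abundant enough to test. For the Kupffer cell list, r was 0.61 with Cd74 (rho = 0.63, permutation p = 4e-05, adjusted p = 0.00056) and 0.52 with H2-Aa (rho = 0.48, permutation p = 0.00094, adjusted p = 0.00439). Without the 2 mice farthest from the median of the list, r was 0.53 with Cd74 and 0.40 with H2-Aa. Within single lane sets, r lay between 0.37 and 0.88 for Cd74, positive in 6 of 6, and between -0.25 and 0.77 for H2-Aa, positive in 5 of 6.

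The haemoglobin list, 4 globin genes and Alas2, a haem synthesis enzyme of red cell precursors, also moved with both genes. Here r was 0.51 with Cd74 (rho = 0.47, permutation p = 0.00042, adjusted p = 0.00294) and 0.43 with H2-Aa (rho = 0.42, permutation p = 0.00302, adjusted p = 0.0106). Within lane sets r lay between 0.29 and 0.70 for Cd74, positive in 6 of 6, and between -0.14 and 0.69 for H2-Aa, positive in 5 of 6. The dendritic cell list had r of 0.34 with Cd74 (permutation p = 0.0269, adjusted p = 0.0754; rho = 0.38, adjusted p = 0.0337) and 0.17 with H2-Aa. The B cell, T cell, monocyte and exocrine pancreas lists had r between -0.12 and 0.18 with either gene, with adjusted permutation p-values of at least 0.514. Without the 2 mice farthest from its median, the monocyte list had r of 0.31 with Cd74 and 0.29 with H2-Aa, and the dendritic cell list 0.34 and 0.14.

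The lists differed in how much of them was measured. Of 10 Kupffer cell markers, 9 were tested, and their summed level ranged from 153 to 266 CPM (median 194) in older and from 129 to 233 CPM (median 182) in younger mice. The 5 transcripts of the haemoglobin list summed to between 61.9 and 869 CPM in older and between 53.6 and 809 CPM in younger mice, and Alas2 was the 1 of them called for age and for cross by edgeR. Only 2 of 9 B cell (Ighm, Igkc), 2 of 10 dendritic cell (Zbtb46, Fscn1), 2 of 6 monocyte (Lyz2, Plac8) and 1 of 8 T cell (Cd4) markers were abundant enough to test. The r of each of these lists rests on those 1 or 2 genes and not on the whole list. The median count was below 1 for Cd209a and Batf3 of the dendritic cell list, Chil3 of the monocyte list, and Cd3e, Cd3g and Cd2 of the T cell list. The part of Kupffer cells, blood and other cells in the spread of class II genes was not tested.

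**Figure D5:**
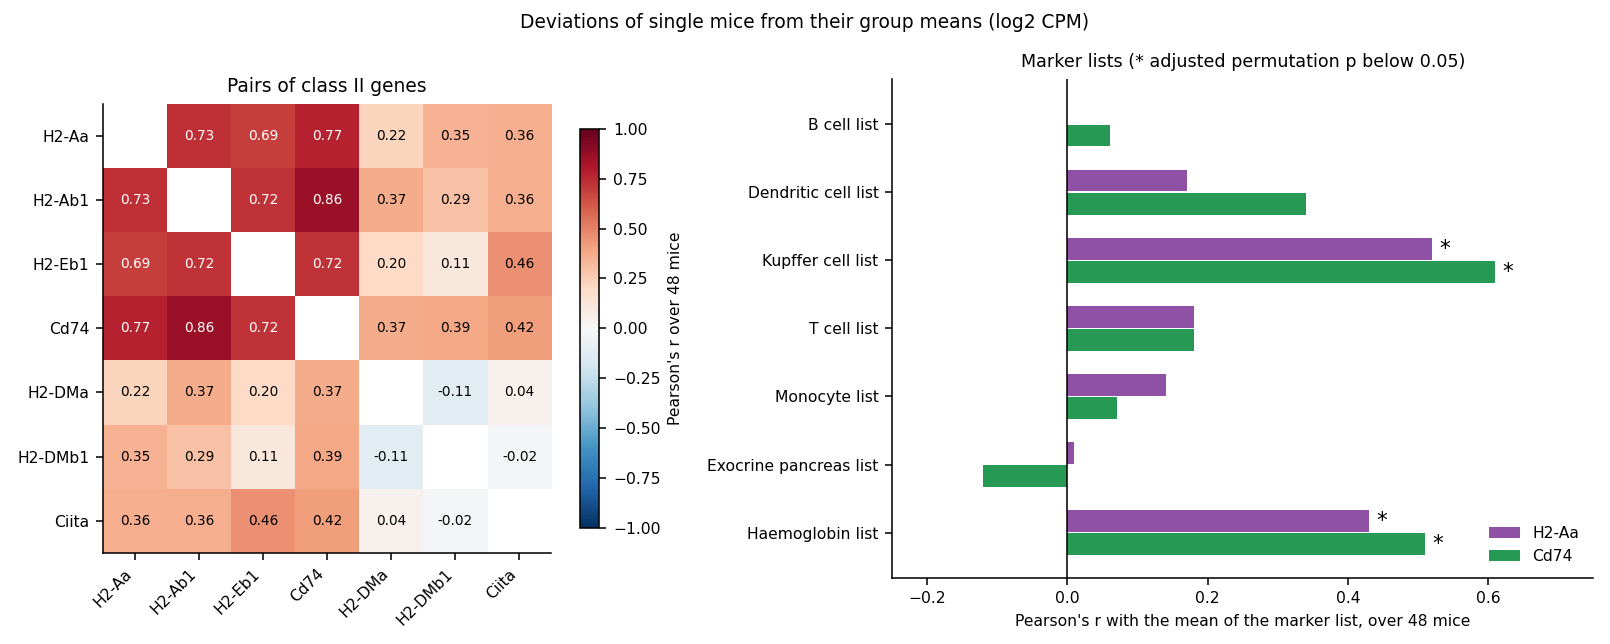
Left, Pearson's r between deviations from group means (log2 CPM, 48 mice) for each pair of 7 class II genes, on a colour scale from -1 to 1. Right, r of H2-Aa (purple) and Cd74 (green) with the mean of the tested markers of each of 7 lists, where an asterisk marks an adjusted permutation p below 0.05. The 4 abundant genes form a block with r of 0.69 to 0.86, and the Kupffer cell and haemoglobin lists carry asterisks for both genes.

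The genes most like the class II group were chosen by the highest r with the mean deviation of H2-Aa, H2-Ab1, H2-Eb1 and Cd74 over 48 mice, among tested genes outside the group. The 10 highest had r of 0.60 to 0.68. Ankrd11, a chromatin regulator, came first (r = 0.68, rho = 0.70), followed by Cfp, which encodes the complement factor properdin (r = 0.66, rho = 0.65), and Oit3 (r = 0.64, rho = 0.62), a gene of the sinusoidal endothelium list. Then came Itgal, an integrin alpha chain of leukocytes (r = 0.63), Csf1r, the receptor for macrophage colony-stimulating factor and a Kupffer cell marker of the list above (r = 0.62), and Cyba, a subunit of the phagocyte oxidase (r = 0.62). Zfp219 (r = 0.61), Myh14 (r = 0.60), Tie1, an endothelial receptor (r = 0.60), and Spi1, the myeloid transcription factor PU.1 (r = 0.60), completed the 10. These values describe likeness over the same mice that chose the genes and carry no test.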

How the data were processed

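Livers of 48 mice were sequenced as unstranded, poly-A selected libraries of 68-base reads, and each mouse was run on 2 flowcells, per the labels' protocols. CASAVA 1.7.0, Bowtie 1.1.2 and GRCm38 (mm10) are named per the submitters' processing notes. No source used here states how both runs of a mouse were merged. The authors deposited expected counts per gene for the NOD and the PWK allele, 1 column per mouse. How reads that fit both alleles or several genes are divided is part of that estimate and can move low counts and allele shares.

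Totals are the sum of both alleles, rounded for the tests, with edgeR 4.0.16 (R 4.3.3; quasi-likelihood test, TMM scaling, filterByExpr, 8 group means, Benjamini-Hochberg over 11979 genes). Allele ratios used both columns of each mouse with the mouse as a term, for autosomal genes with a mean of at least 20 counts. CPM used TMM-scaled totals, and deviations were taken on log2(CPM + 0.5). Correlations used 100000 permutations within groups, two-sided like all tests. Tools were also run on simulated data. The simulated allele counts had binomial spread only, less than most genes showed here, so that run cannot tell how often the allele test errs in these data. Alternatives with limma 3.58.1 and DESeq2 1.42.0, other filters and scalings, and without single lane sets or groups of mice are given in the closing section.

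Replicate numbers mark the lane set, 1 mouse of each group on each of 6. Over 168 pairs of mice in the same lane set, deviations correlated at a mean r of -0.005, against 0.001 for other pairs, and 32 pairs exceeded 0.1. Since deviations are from group means, the mean of the other pairs depends on the first and is no separate check. All 120 replicate pairs differed by more than sampling noise (chi-square per gene of at least 4.59). The genes, lists and tests were chosen with earlier results of these data known. The genes named are chiefly the 8 class II genes, the pathway genes that passed a test and the 10 most alike genes. For alleles, the 4 pathway genes with the smallest p are named. Outside this rule, H2-DMb2, genes along the class II region such as Brd2, Tap1 and Tap2, genes that share reads, and single markers of the lists are named.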

Additional observations from a re-analysis of the deposited data

Results flagged for a closer look

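Among 80 groups of 6 values, 5 held a mouse whose gap to the next was large for the group's range, and chance gives about 1 such group in 20. H2-Aa was at 50.2 CPM in replicate 3 of the NODxPWK younger high group, where the next value was 31.5 CPM. H2-Aa was at 33.1 CPM in replicate 4 of the NODxPWK younger normal group, where the next was 25.7 CPM. H2-Eb1 was at 10.9 CPM in replicate 5 of the NODxPWK older normal group, where the next was 8.83 CPM. Cd74 was at 34.4 CPM in replicate 2 of the PWKxNOD younger normal group, where the next was 53.6 CPM. The PWK share of Cd74 was 35.2% in replicate 3 of the NODxPWK older normal group, where the next was 47%.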

How the results depend on the processing

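No class II gene was called for total expression under any alternative that gave it an adjusted p, and H2-Aa was called for PWK over NOD in 14 of 14, at 0.36 to 0.45 on the log2 scale (adjusted p of 6.81e-09 to 5.12e-05, edgeR or limma). With a mean of at least 5 counts, 2 class II genes were called for PWK over NOD, Ciita and H2-Aa, since more genes were tested. With the lane set as a replicate block, H2-Aa had 0.41 for PWK over NOD (limma, adjusted p = 9.54e-09) and 0.02 for age in total expression (edgeR, adjusted p = 0.936). The block changed no call of a class II gene, and it called 1394 genes for age, 55 for diet, 1264 for cross, 93 for age by diet, 3 for age by cross and 10 for diet by cross. Pairs of mice in the same lane set had a mean r of -0.005, and 8 of 48 mice correlated best with their own lane set.

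DESeq2 gave no adjusted p to H2-DMa, H2-DMb1 and Ciita for diet and for age by diet, nor to these and H2-Eb1 for diet by cross. Counts over all genes moved by more than 1.5 times under several alternatives. Without the mice labelled 25, which leaves 1 NODxPWK older normal mouse assumed to vary like the others, 777 genes were called for age (against 1439), 847 for cross (1281), 0 for diet (41), 0 for age by diet (74), 0 for age by cross (6), 4 for diet by cross (15) and 16 for the allele ratio by diet (2). DESeq2 called 124 for diet, 167 for age by diet, 40 for age by cross and 46 for diet by cross. With no low-count filter 24, 23 and 2 were called for diet, age by diet and diet by cross. Without the shallowest barcode 15, 38 and 2 were called for diet, age by diet and age by cross, and without the mouse with pancreas transcripts 41 and 5 for age by diet and diet by cross. Without single lane sets the counts fell as low as 6 for diet, 4 for age by diet, 0 for age by cross, 39 for allele age, 0 for allele diet and 16 for maternal over paternal, and ran from 0 to 90 for diet by cross. The cause was not tested.

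The signs that changed all belonged to uncalled log2 differences. Without the mice labelled 25 they were -0.03 for H2-Aa by age, 0.54 for H2-DMa by diet, -0.05 for H2-Eb1, -0.38 for H2-DMa and -0.01 for Cd74 by cross, 1.15 for H2-DMa in age by diet, and, for allele ratios, 0.03 for H2-Aa maternal over paternal, -0.18 for H2-Ab1 by age, 0.05 for H2-Aa and 0.02 for Cd74 by diet. Without the shallowest barcode they were 0.06 for H2-DMa and -0.01 for H2-DMb1 by age. Without the mouse with pancreas transcripts they were -0.01 for H2-Eb1 by cross and, for allele ratios, 0.00 for H2-Ab1 and 0.01 for Cd74 in PWK over NOD, -0.03 for H2-Ab1 by age and 0.01 for H2-Aa by diet. With allele columns scaled separately, PWK over NOD was 0.00 for H2-Ab1 and 0.01 for Cd74. By limma, H2-Ab1 had -0.01 for the allele ratio by age, with and without the replicate block.

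Leaving out each lane set in turn gave these ranges of log2 differences. For age they were -0.01 to 0.07 for H2-Aa, -0.16 to 0.10 for H2-DMa and -0.12 to 0.07 for H2-DMb1. For diet they were -0.04 to 0.08 for H2-Aa, -0.00 to 0.13 for H2-Ab1 and -0.23 to 0.03 for H2-DMa. For cross they were -0.03 to 0.06 for H2-Eb1 and -0.14 to 0.20 for H2-DMb1. For age by diet they were -0.24 to 0.03 for H2-Aa, -0.27 to 0.03 for H2-DMa and -0.51 to 0.02 for H2-DMb1. For age by cross they were -0.13 to 0.02 for H2-Ab1, -0.42 to 0.46 for H2-DMb1, -0.18 to 0.02 for Cd74 and -0.45 to 0.08 for Ciita. For allele ratios they were -0.09 to 0.04 for H2-Ab1 and -0.05 to 0.04 for Cd74 in PWK over NOD, and -0.05 to 0.02 for H2-Aa and -0.00 to 0.08 for H2-Ab1 in maternal over paternal. By age the allele ranges were -0.11 to 0.06 for H2-Aa, -0.04 to 0.07 for H2-Ab1 and -0.28 to 0.06 for Cd74, and by diet -0.05 to 0.03 for H2-Aa and -0.05 to 0.07 for H2-Ab1. Depth limits H2-DMa, H2-DMb1 and Ciita, which a mean of at least 10 counts leaves untested. Without the mouse with pancreas transcripts (n = 47), 4 of the 14 marker relations had an adjusted permutation p below 0.05, those of H2-Aa (r = 0.52 and 0.44) and Cd74 (r = 0.62 and 0.54) with the Kupffer cell and haemoglobin lists.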
